A study of Mus musculus with 41 samples.

Results

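Tumors PLK2null_7750, PLK2null_1984, PLK2null_1985 and PLK2null_1986 are 4 of the 28 Plk2-/-; p53-/- mammary tumors, and of the 41 tumors in all, whose RNA was sequenced. They were selected on measured values, because their expression profiles resembled one another far more than those of other tumors, with Map3k1 given as the gene that marks them. They are described here against 21 other Plk2-/-; p53-/- tumors, called the comparators. The claudin-low tumors PLK2null_732, PLK2null_733 and PLK2null_743 were set aside. The remaining 13 tumors were p53-/-. Because measured values chose the 4 tumors, every difference between them and the comparators is a description and carries no test.

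All of these tumors, comparators included, were p53-null and of the Balb/c strain, and per the labels they grew untreated in the mammary fat pads of hosts of the same strain. The Plk2-/-; p53-/- tumors go back to mammary epithelial cells placed in cleared fat pads of wild-type mice, and how many transplantations separate each sequenced tumor from its origin is not given in the sources used here. The 4 tumors and the comparators also lacked Plk2. Tumor PLK2null_7750 belongs to the primary tumors whose latency was followed, whereas the labels do not state how PLK2null_1984, PLK2null_1985 and PLK2null_1986 are related to it. The host supplies blood vessels, fibroblasts, immune cells and fat, so the bulk RNA holds transcripts of both. In bulk tumors, fewer cells of a type and less RNA per cell cannot be told apart. The p53-null tumors carry a different naming series in the labels, so genotype and any batch of collection cannot be told apart in values set beside them.

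The mammary duct has an inner luminal layer, which makes milk under prolactin, and an outer basal layer of contractile cells anchored to the basement membrane. Keratin 8 and keratin 18 mark luminal cells, and keratin 5, keratin 14 and the transcription factor p63 mark basal cells. Mammary tumors often carry gains and losses of chromosome stretches, and genes that lie side by side can then be raised or lowered together. Map3k1 encodes a kinase that feeds the JNK and p38 pathways, and Plk2 lies close to it on the same chromosome.

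Values are upper-quartile-normalized estimated counts on a linear scale, set so that the 75th percentile of a tumor's nonzero values is 1000. Values above 0 compare one gene between tumors and are not per length, so they do not rank genes against one another. The depth read from the low values was 35187987 to 39325043 fragments in the 4 tumors and 31910743 to 53245394 in the comparators, and a value of 1.96 to 2.15 stood for 3 reads in the 4 tumors. A difference is the mean of log2(value + 1) in the 4 tumors minus that in the comparators, a scale that understates changes of low genes.

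Plk2, the deleted gene, had values of 347 in tumor PLK2null_7750, 457 in PLK2null_1984, 496 in PLK2null_1985 and 426 in PLK2null_1986. In the comparators Plk2 ran from 83.3 through a median of 275 to 553, and in the p53-null tumors from 186 through 3402 to 8028. The 4 tumors therefore lay inside the range of the other Plk2-/-; p53-/- tumors, and 12 of 13 p53-null tumors were above the lowest of the 4. Trp53 RNA was listed at 2581 to 3470 in the 4 tumors and at 1563 to 3914 in the comparators. A total per gene does not say which exons the reads came from.

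Likeness was measured as Pearson correlation over the 2000 most variable genes, each centered on its median over the 41 tumors. The 6 pairs among the 4 tumors had r of 0.78 to 0.91, with PLK2null_1985 and PLK2null_1986 the closest pair and PLK2null_7750 and PLK2null_1985 the least alike. The nearest tumor outside the 4 was p53null-2208L at 0.30, and the nearest comparator was PLK2null_1980 at 0.26. For comparison, 2 other sets of 4 were PLK2null_7753, PLK2null_1987, PLK2null_1988 and PLK2null_1989, with r of 0.71 to 0.85, and PLK2null_7764, PLK2null_1977, PLK2null_1980 and PLK2null_1981, with r of 0.54 to 0.70. Those sets reached 0.60 with each other. The points of a correlation are genes that share libraries, so these values describe the profiles only. The libraries of the 4 tumors were not copies of one another, since the median chi-square per gene was 4.48 to 7.07 in the 6 pairs, against 0.455 from sampling alone.

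Of 17014 genes with a mean of at least 10, 471 (2.77%) stood apart above the comparators and 305 (1.79%) stood apart below them. A gene stood apart when all 4 tumors lay on one side of all 21 comparators and the difference was at least 1 on the log2 scale. The same contrast chose the tumors, so these shares are only a count. At the edge of the size limit, the smallest difference inside it was 1.001 and the largest outside it 0.99990. A size of 2 or more was reached by 243 of the higher and 125 of the lower genes. Of the 471 higher genes, 334 were also above all 13 p53-null tumors in all 4 tumors, and of the 305 lower genes, 94 were also below all of them. The same rule gave 113 higher (0.664%) and 162 lower (0.952%) genes for PLK2null_7753, PLK2null_1987, PLK2null_1988 and PLK2null_1989, and 42 higher (0.247%) and 65 lower (0.382%) genes for PLK2null_7764, PLK2null_1977, PLK2null_1980 and PLK2null_1981. These comparisons share most of their tumors, so the counts stand side by side without a test.

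**Figure D1:**
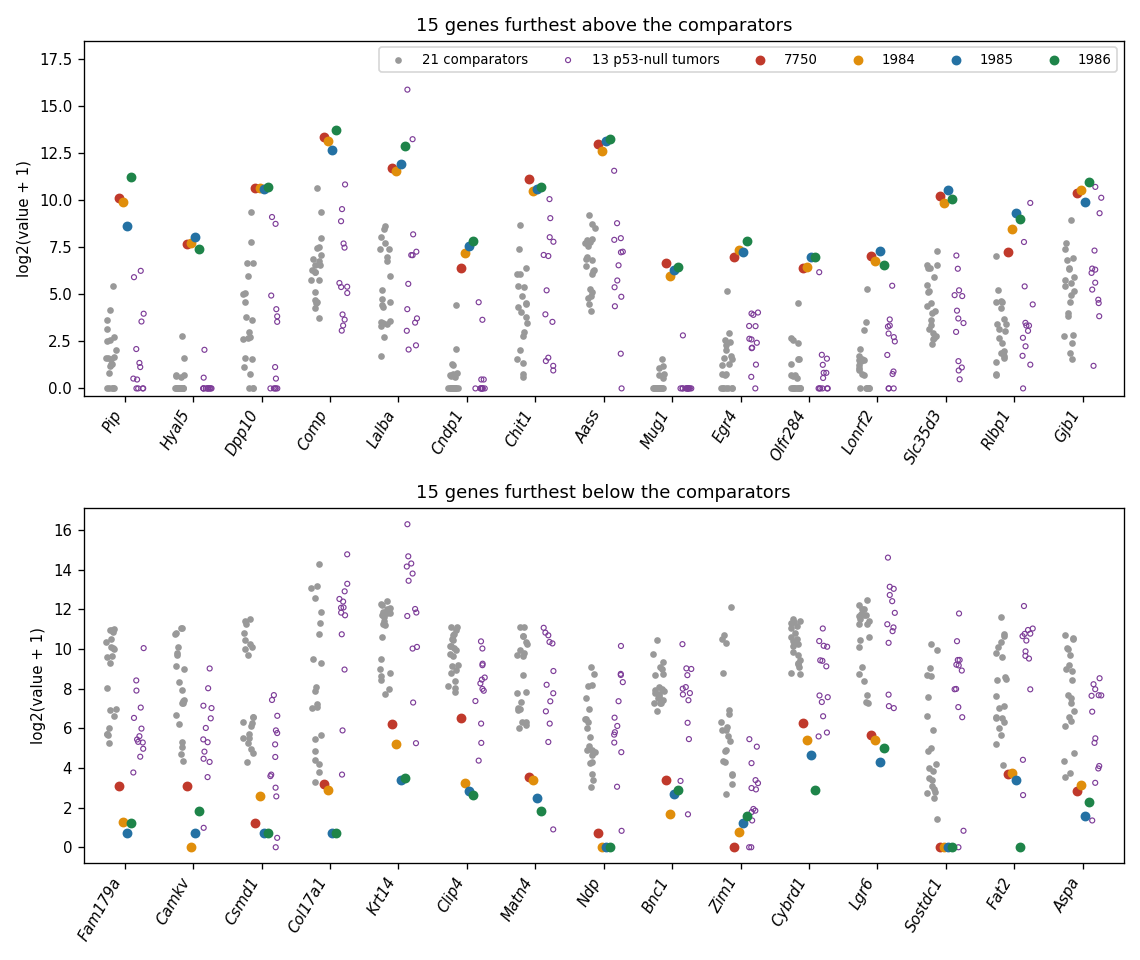
Values of the 15 genes furthest above and the 15 furthest below the comparators, as log2(value + 1), without predicted genes; colored points are the 4 related tumors, grey points the 21 comparators and open purple points the 13 p53-null tumors. The 4 tumors lie above every comparator in the upper panel and below every comparator in the lower panel, while some p53-null tumors reach their levels, as for Lalba.

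The gene furthest above the comparators was Pip, which encodes a secreted protein whose name, prolactin-induced protein, records its response to that hormone. Pip read 1126 in PLK2null_7750, 972 in PLK2null_1984, 403 in PLK2null_1985 and 2437 in PLK2null_1986, against a lowest of 0, a median of 2.06 and a highest of 42.0 in the comparators. All 13 p53-null tumors stayed at or under 75.3. Lalba encodes alpha-lactalbumin, a milk protein and part of the enzyme that makes lactose. It read 3388, 3068, 3870 and 7622 in the same order, against 2.34, 26.5 and 396 in the comparators. All 4 tumors were far above every comparator for both genes, and PLK2null_1986 was the highest of the 4 for both. For Lalba, 2 p53-null tumors were above the lowest of the 4, the highest at 60797.

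The promoters of these secretory genes are shown because STAT5, the transcription factor that prolactin activates, binds a palindrome of the form TTCNNNGAA, and the motif was chosen after the values of Pip were seen. The sequences are RefSeq windows of GRCm38.p6 from 250 bases before to 50 bases after the start, on the strand of the gene, with matches in capitals. The Pip window is chr6:41847299-41847598 on the plus strand and the Lalba window is chr15:98482634-98482933 on the minus strand.
Pip: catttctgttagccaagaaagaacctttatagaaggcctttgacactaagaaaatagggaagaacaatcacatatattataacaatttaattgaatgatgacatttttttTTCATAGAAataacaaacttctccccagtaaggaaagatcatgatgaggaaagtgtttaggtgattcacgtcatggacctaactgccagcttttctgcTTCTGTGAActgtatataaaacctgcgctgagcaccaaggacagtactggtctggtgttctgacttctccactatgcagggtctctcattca
Lalba: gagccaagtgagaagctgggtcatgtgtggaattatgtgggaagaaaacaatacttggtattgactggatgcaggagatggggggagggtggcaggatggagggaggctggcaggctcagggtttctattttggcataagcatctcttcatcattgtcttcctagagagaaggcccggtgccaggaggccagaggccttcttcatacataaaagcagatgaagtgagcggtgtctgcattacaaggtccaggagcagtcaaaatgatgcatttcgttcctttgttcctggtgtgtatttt
The Pip window held 2 matches, which begin 140 and 42 bases before the start, and the Lalba window held none. Of 32851 promoter windows, 8.30% held the motif on either strand, which for a palindrome is the same search. Among the 15 genes furthest above, 12 matched the promoter table and only Pip had a match; of the 15 furthest below, 12 matched and 0 had one. A match is a description of letters and not of binding.

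The other genes furthest above the comparators had varied roles. Dpp10, which encodes a subunit of potassium channels, read 1600, 1642, 1542 and 1681 against 0, 6.89 and 676. The Dpp10 values were within a narrow range in the 4 tumors, with a mean of 1616 ± 59.8 (SD, n = 4). Chit1, which encodes a chitinase made by macrophages, read 2276, 1427, 1572 and 1702 against 0.548, 18.8 and 413. Cndp1, a dipeptidase of carnosine, Egr4, a zinc finger transcription factor, and Mug1, a protease inhibitor of plasma, were also higher, and the median comparator was at 0 for Cndp1 and Mug1. Slc35d3, a transporter of the nucleotide sugar family, rose from a comparator median of 19.6 to 931 to 1503. Gjb1, which encodes connexin 32, read 970 to 2011 against a comparator median of 42.9 and a highest of 499. Olfr284, an olfactory receptor gene, Lonrf2 and Rlbp1, which binds retinaldehyde, were higher as well, with differences of 5.80, 5.66 and 5.47. Hyal5, Aass and Comp are given below with the stretches that hold them.

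Genes furthest below the comparators included several of the basal layer. Krt14 read 74.4 in PLK2null_7750, 36.6 in PLK2null_1984, 9.65 in PLK2null_1985 and 10.3 in PLK2null_1986, against 209, 2709 and 5445. Col17a1, the hemidesmosome collagen, read 8.09, 6.46, 0.670 and 0.652 against 8.71, 231 and 20311. The lowest comparator was close to the highest of the 4 for Col17a1 and clear of it for Krt14. Bnc1, a transcription factor of keratinocytes, read 2.15 to 9.44 against 115, 231 and 1425. Fat2, a giant cadherin of squamous epithelium, read 12.1, 12.2, 9.38 and 0 against 16.7, 194 and 3111. Lgr6, a receptor for R-spondins found on epithelial stem cells, read 49.9, 40.9, 18.8 and 30.6 against 154, 2459 and 5750.

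Sostdc1, a secreted antagonist of Wnt and BMP signals, was 0 in all 4 tumors and 1.66 to 1230 in the comparators, which places it at least 12.4-fold lower than the comparators, taking their mean on the log2(value + 1) scale and the highest floor of 3 reads per tumor among the 4. Ndp, whose product norrin activates a Wnt receptor, was 0.674 in PLK2null_7750 and 0 in the others, against 7.36, 46.0 and 541, or at least 18.1-fold lower. Zim1, an imprinted zinc finger gene, was at or under 1.96 in all 4 and thus at least 25.5-fold lower. Of the remaining genes furthest below, Clip4, a microtubule-binding protein, stood out by tumor, with 89.7 in PLK2null_7750 and 5.21 to 8.61 in the other 3, against 225, 972 and 2231. Cybrd1, an iron reductase of the cell surface, read 6.52 to 76.9 against 428, 1267 and 2967. Matn4, a matrix protein, Camkv, Csmd1, Aspa, which splits N-acetylaspartate, and Fam179a had differences from -7.00 to -5.24.

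**Figure D2:**
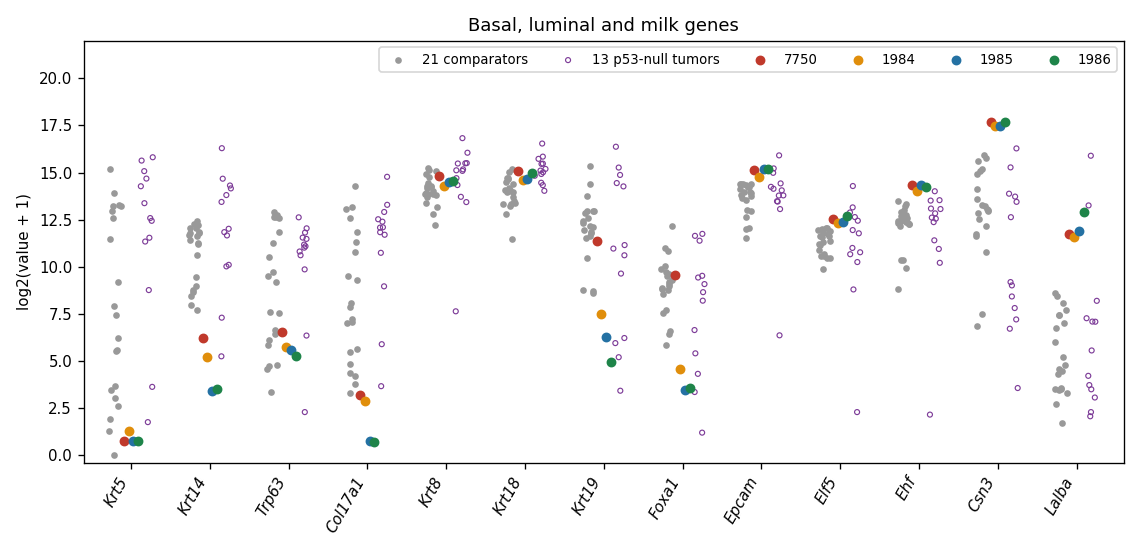
Basal, luminal and milk genes as log2(value + 1) in each tumor, with the 4 related tumors colored, the 21 comparators in grey and the 13 p53-null tumors as open purple points. Krt5 is near 0 in all 4 tumors, Krt14 is under every comparator, and Krt8 and Krt18 lie within the comparators. For Krt19 and Foxa1, PLK2null_7750 lies inside the comparators and the other 3 lie below all of them.

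The list of 18 basal genes had a median difference of -2.34, against -0.09 over all genes kept. In it 3 genes stood apart below (Krt14, Col17a1 and Sostdc1), where the share over all genes was 1.79%, none stood apart above, and 15 of 18 had a negative difference. Krt5 read 0.680, 1.44, 0.670 and 0.666, each under 3 reads, but comparators ranged from 0 to 36680, so the groups overlapped. Trp63, which encodes p63, read 37.1 to 91.0 against 9.34, 584 and 7601, also overlapping. The summed level of the list was 39241 to 46679 in the 4 tumors and 28681 to 162632 in the comparators. Other basal genes ran the other way, with Dst, a linker of the cytoskeleton, at a difference of 1.299 without standing apart.

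Luminal genes lay on both sides of the comparators, with 9 of 16 differences positive and a median of 0.33. Krt8 read 29055, 20067, 23157 and 24211, and Krt18 read 34267, 24500.4, 25899 and 32105, inside comparator ranges of 4837 to 38600 and 2832 to 37086. Ehf, an epithelial factor of the ETS family, read 20803, 16775, 20550 and 19228 against 453, 5416 and 11398. Elf5, the ETS factor of milk-producing luminal cells, read 5929, 5168, 5330 and 6541 against 930, 2606 and 4210. Those were the 2 of 16 luminal genes that stood apart, both above, where the share over all genes was 2.77%. The 7 negative differences were those of Krt19 at -4.48, the progesterone receptor Pgr at -3.74, Foxa1 at -3.66, Cited1 at -1.77, the estrogen receptor Esr1 at -1.66, Tfap2b at -1.57 and the growth factor Areg at -0.70, none of them apart. Of 20 junction genes, Epcam, an adhesion protein of epithelia, and Esrp2, a splicing factor of epithelia, stood apart above. Epcam read 35840, 27894, 37964 and 36895 against 2935, 15372 and 21686, and Esrp2 read 3506 to 4235 against 326, 1842 and 3213. Cldn3 and Cldn7, claudins of tight junctions that are low in claudin-low tumors, read 6005 to 6429 and 2814 to 3381, within comparator ranges of 608 to 14464 and 138 to 5749.

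In the list of 16 milk genes the median difference was 1.31, with 3 genes apart above (Csn3, Lalba and Xdh) and none below, and 2.77% of all genes were apart above. The list had 12 positive differences, and the 4 negative ones were those of Plin2 at -0.58, Ltf at -0.82, Mfge8 at -1.08 and Fcgbp at -1.81. Csn3, which encodes the casein that keeps milk micelles in suspension, read 208079, 180015, 183974 and 213851 against 116, 8576 and 63497. Every one of the 4 was also above all 13 p53-null tumors, the highest of which was at 79602. Xdh, an enzyme of milk fat droplets, read 6076 to 10341 against 293, 1806 and 3514. Other caseins overlapped the comparators, such as Csn2 with 2440, 1955, 711 and 298 against 15.2, 508 and 17213. The median deviation of the milk list was 2.67 in PLK2null_7750, 1.93 in PLK2null_1984, 0.26 in PLK2null_1985 and 1.68 in PLK2null_1986, so PLK2null_1985 was lowest. Wap, the whey acidic protein, read 72.2, 43.1, 36.8 and 41.1 against 0, 4.02 and 71.3, and its groups overlapped.

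Map3k1 read 4395, 3514, 4125 and 4961 in the 4 tumors, or 4249 ± 601 (SD, n = 4). Comparators ran from 1074 through 1882 to 3271, so all 4 tumors were above all 21, with a difference of 1.14. The p53-null tumors reached 5342 and 2 of them were above the lowest of the 4. Of 24 genes of the MAP3K route to JNK and p38, 23 were kept and only Map3k1 and Jund stood apart, both above, where the share over all genes was 2.77% and Map3k1 is the gene given as the marker of the 4. Jund, a subunit of the AP-1 factor that JNK acts on, read 31557, 23849, 19711 and 34988 against 1153, 3347 and 7228, and it lies in the raised stretch of chromosome 8. Of 25 kept genes around Plk2 and Map3k1 on chromosome 13, Map3k1 stood apart above. Il6st, the shared receptor chain of the interleukin-6 family, stood apart below at 1488 to 1787 against 2138, 3553 and 5954. Over all genes the shares were 2.77% above and 1.79% below. No window of chromosome 13 was part of a raised stretch of 10 genes or more. A shorter raised stretch of 6 genes, from Map1b to Serf1, had medians of 0.58 to 0.89 against -0.49 to 0.55 and did not reach Map3k1. Met, a receptor tyrosine kinase, read 83392, 60280, 83149 and 76088, within a comparator range of 419 to 203935 whose median was 100053.

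Signaling lists were mostly inside the comparators. Over all genes kept, 2.77% stood apart above and 1.79% below, the shares to set beside the count of each list. The Wnt list had the lowest median after the basal list, -1.0004, with Tcf7, Wnt10a, Wnt5b and Axin2 apart below and none of 22 kept genes apart above. Tcf7, a transcription factor of the Wnt pathway, read 74.9, 79.7, 60.9 and 40.4 against 711, 1977.2 and 2736. The lowest comparator was far above the highest of the 4. Wnt10a, a ligand, read 0, 3.59, 0.670 and 0.652 against 12.4, 40.4 and 250. Axin2, a feedback inhibitor that the pathway induces, read 102, 94.0, 23.4 and 31.9 against 115, 233 and 706. Lef1, another factor of the pathway, went the other way at 1152 to 2940 against 4.81, 265 and 3045 and overlapped the comparators.

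In the TGF-beta and BMP list of 21 genes, the median difference was -0.12, against -0.09 over all genes kept. Tgfb2, a ligand, stood apart above, where the share over all genes was 2.77%. Bmp2, also a ligand, stood apart below together with the BMP target genes Id1, Id3 and Id4, where the share was 1.79%. Id2 went the other way with a difference of 1.26, and Smad6 was at -0.12, neither of them apart. Tgfb2 read 3660, 3644, 3934 and 4240 against 162, 1025 and 1410. Id4 read 92.4, 113, 71.0 and 54.7 against 243, 1499 and 11992. Bmp2 read 14.3 to 18.9 against 28.9, 219 and 3498. In the Notch list of 16 genes, Hey1, a target gene, was apart above at 1850 to 2562. Nrarp, a feedback inhibitor, was apart below at 102 to 177. Of 16 kept Hippo genes, Tead2 was apart above and Tead1 apart below, at differences of 1.01 and -1.51. Both are DNA-binding partners of the Hippo effectors. The shares over all genes given for the TGF-beta and BMP list hold for these lists too.

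Among 19 genes of cell cycle entry, Ccnd1 and Rb1 stood apart below, where the share over all genes was 1.79%. Ccnd1, the cyclin D that starts the cell cycle, read 2074, 2209, 2138 and 1295 against 8507, 16334 and 43309. Rb1, the brake that cyclin D kinases release, read 486, 558, 535 and 476 against 618, 1101 and 3736. None of 20 proliferation genes stood apart, where the shares over all genes were 2.77% above and 1.79% below. The median of that list was 0.24. Of 18 p53 target genes, Fas and Phlda3 stood apart below, beside the same share of 1.79%. Bid was the one of 18 apoptosis regulators that stood apart, above, where the share over all genes was 2.77%. Acsl4, which activates long-chain fatty acids, read 38737, 33732, 33378 and 37374 against 1021, 6808 and 14364. Sox10, a transcription factor of nerve sheath cells that mammary cells also make, read 37198, 29684, 32863 and 39196 against 4457, 12577 and 19481, and Sox11 was apart below at 7.42 to 15.8 against 29.3, 222 and 710.

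Genes raised or lowered together along chromosomes were found with windows of 15 neighboring kept genes. The deviation of a gene is its log2(value + 1) minus the median of the comparators, and a window takes the median of its genes. A window was raised when all 4 tumors were above all 21 comparators and the mean of the 4 was at least 0.5 above the comparator median. Of 16513 windows, 267 (1.62%) were raised and 383 (2.32%) were lowered. Raised windows numbered 180 (1.09%) for PLK2null_7753, PLK2null_1987, PLK2null_1988 and PLK2null_1989 and 16 (0.0969%) for PLK2null_7764, PLK2null_1977, PLK2null_1980 and PLK2null_1981, and the tumors are shared here too. The windows of the 4 tumors joined into 21 raised and 64 lowered segments, of which 6 raised and 19 lowered held at least 10 genes. Segments below are those of at least 10 genes unless called shorter. Of 16793 kept genes with a position, the raised segments held 227, of which 126 were among the 471 genes apart above, or 26.8% of them. The lowered segments held 291 genes and 35 of the 305 genes apart below, or 11.5%. Segments and genes were called on the same values of the same tumors, so much of this overlap is built in.

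**Figure D3:**
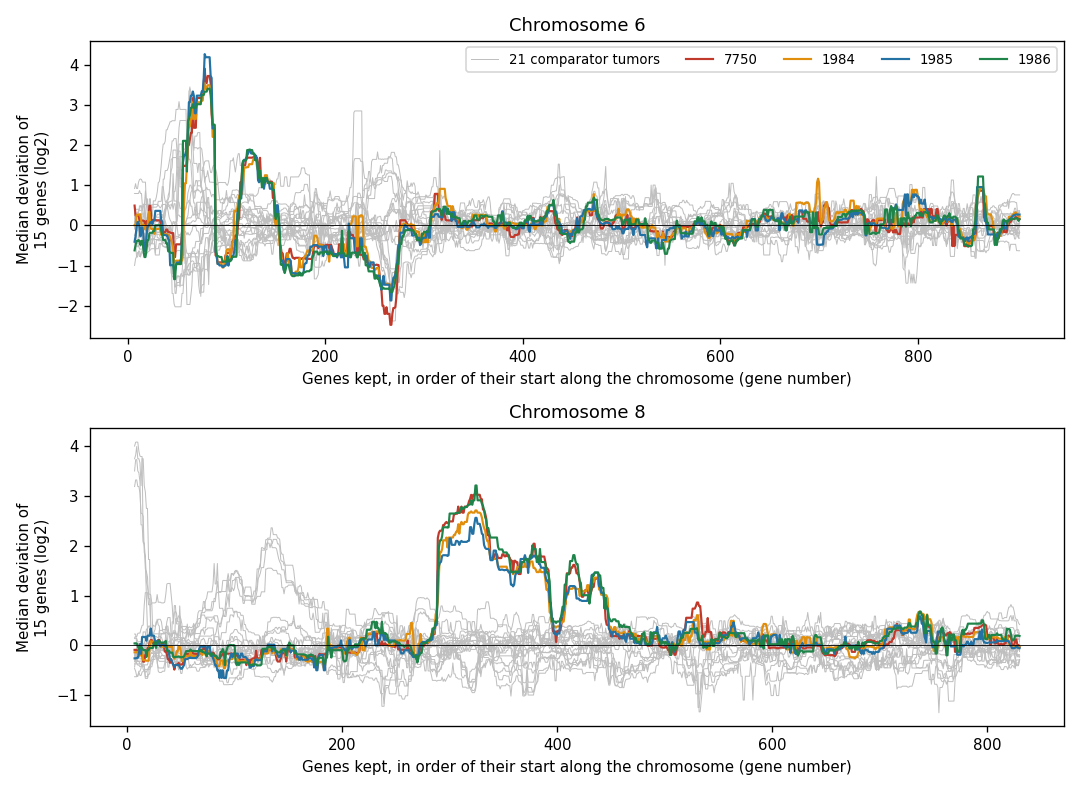
Median deviation over windows of 15 neighboring genes along chromosomes 6 and 8, plotted against the number of the gene along the chromosome; colored lines are the 4 related tumors and grey lines the 21 comparators. The 4 lines rise and fall together, with alternating raised and lowered stretches in the first part of chromosome 6 and 1 long raised stretch with a dip on chromosome 8.

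The longest raised segment lay on chromosome 8, from Sugp1 to Tom1 (mm10 chr8:70042813-75070121), with 107 kept genes. Its median deviation was 2.18 in PLK2null_7750, 1.87 in PLK2null_1984, 1.79 in PLK2null_1985 and 2.15 in PLK2null_1986, against -0.72 to 0.56 in the comparators and -0.47 to 0.33 in the p53-null tumors. Of the 107 genes, 77 stood apart above and 0 below. Chromosome 8 as a whole held 108 of the 471 genes apart above, 22.9% of them, with 4.93% of the kept genes.

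The gene with the largest difference there was Comp, a pentameric protein of cartilage matrix, at 10632, 9096, 6571 and 13615 against 12.3, 76.3 and 1603. Pde4c, a phosphodiesterase of cyclic AMP, read 3199, 2598, 1696 and 3381 against 57.8, 129 and 338. Rab3a, a small GTPase of secretory vesicles, read 5109, 3646, 2283 and 6184 against 90.6, 209 and 350. These genes and Ssbp4, at 19800 to 29596 against a highest comparator of 2407, stood further out than their neighbors. Signaling genes were raised as well, and those given next were chosen after their values were seen. The kinase subunit gene Pik3r2 read 8023 to 17178 and Jak3, a cytokine receptor kinase, 2573 to 2975, against highest comparators of 3842 and 1983.

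Within this segment the level differed between its parts and between the 4 tumors. In the 39 genes apart above from Sugp1 to Map1s, the median deviation was 2.79 in PLK2null_7750, 2.48 in PLK2null_1984, 2.224 in PLK2null_1985 and 2.82 in PLK2null_1986. Tumor PLK2null_1985 was the lowest of the 4 in 38 of those 39 genes. In the 38 genes apart above beyond Map1s, the medians were 1.82, 1.64, 1.74 and 1.99, and PLK2null_1985 was lowest in 15 of 38. The split at Map1s was chosen after the values were seen, and the genes share the libraries. The difference between the parts has no test.

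A further raised segment on chromosome 8 ran from Prmt10 to Rfx1 (mm10 chr8:77549388-84096992), with 44 genes, 22 of them apart above and 1 below. Its medians were 1.14, 1.10, 1.02 and 1.27 against -0.43 to 0.35 in the comparators. Tom1, which ends the first segment, and its neighbor Hmox1 were inside the comparators, with differences of -0.09 and -0.24. Zfp827, a zinc finger gene, read 3992, 2662, 2849 and 4150 against 54.0, 633 and 1273. Tecr, which completes the synthesis of very long fatty acids, read 18755 to 23248 against a highest comparator of 8201, and Adgrl1, an adhesion receptor, 10410 to 12300 against 5680. Prkaca, the catalytic subunit of protein kinase A, read 6901, 6189, 7521 and 7593 against 1267, 2072 and 2478. Smad1, which transmits BMP signals, overlapped the comparators at 2957 to 5054 against a highest of 4516. The gene apart below was Il15, a cytokine, at 18.2 to 33.7 against 49.4, 87.9 and 155.

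Chromosome 6 alternated. From Gm43843 to Pot1a (mm10 chr6:18429659-25809246), 23 genes had medians of 3.32, 3.21, 3.74 and 3.28, against -1.15 to 1.47 in the comparators, the highest of which was PLK2null_1970. In this segment p53null-2208L had a median of 2.88, close to the 4 tumors. Of the 23 genes, 11 stood apart above. Hyal5, a hyaluronidase, read 201, 215, 262 and 169 against 0, 0 and 5.91. Aass, the first enzyme of lysine breakdown, read 8120, 6251, 9104 and 10031 against 16.6, 113 and 600. Fam3c, which encodes a secreted protein linked to epithelial plasticity, read 110434, 117104, 135553 and 143192 against 768, 5426 and 21311. Tspan12, a membrane protein that helps norrin signaling, read 20360 to 25279 against a highest of 6848, and Ptprz1, a receptor phosphatase, 9055 to 18500 against 3550. Wasl, an actin regulator, read 51975 to 65746 against 1752, 3043 and 11949.

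On the centromeric side of this segment lie Met and, before it, Cav1 and Cav2, which encode the coat proteins of caveolae, and Tes, a focal adhesion gene. Cav1 stood apart below at 393, 530, 438 and 231 against 1057, 7240 and 91170. Tes read 4242 to 7402 against 1955, 37908 and 260707 and overlapped. Just past Met, St7 read 8674, 8776, 9229 and 10610 against 147, 840 and 12269, and Cftr, the chloride channel, was apart above at 4250 to 7640 against 2.50, 279 and 3805. The genes were named after their values were seen, since they flank Met. Neighboring genes thus stood on opposite sides of the comparators within a short stretch.

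After Pot1a came a lowered segment of 15 genes that ended at Ccdc136 (mm10 chr6:28215555-29426994), with medians of -0.92, -1.05, -1.03 and -0.90. Rbm28, a factor of ribosome assembly, read 718, 754, 737 and 669 there against 1400, 2280 and 4797, and Calu, a calcium binder of the secretory pathway, 8137 to 9794 against a lowest of 13376. A raised segment of 24 genes followed from Ube2h to Cald1 (mm10 chr6:30211289-34775473), with medians of 1.69, 1.49, 1.75 and 1.71 against -0.64 to 0.85, and 11 genes apart above. Cald1, an actin-binding protein, read 81064, 75658, 93346 and 89584 against 5812, 21251 and 39746. Chchd3, a protein of mitochondrial cristae, read 10223 to 12716 against a highest of 4700. Lrguk read 91.1 to 124 against a highest of 26.6, at lower levels.

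Lowered segments of 33, 10 and 23 genes then reached to Hoxa2 (the last at mm10 chr6:49036546-52164831). Braf, the kinase of the ERK route, lay in the first and read 758, 778, 802 and 728 against 1064, 1844 and 4531, with a difference of -1.26. Its neighbors Ubn2 and Luc7l2 were also apart below. Against the 13 p53-null tumors the differences of Braf, Ubn2 and Luc7l2 were 0.12, 0.35 and 0.085, so these genes were low next to the comparators and not next to p53-null tumors. Of the 4 lowered segments of chromosome 6, 0 were apart from the 13 p53-null tumors. Osbpl3, an oxysterol-binding protein, read 322 to 395 against 685, 1659 and 8120, and Cbx3, a heterochromatin protein, 2091 to 2622 against 2999, 6249 and 11227. The medians of the last segment were -0.99, -1.10, -1.25 and -1.33. Pip lies past the end of the first of these lowered segments and is outside all of them.

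**Figure D4:**
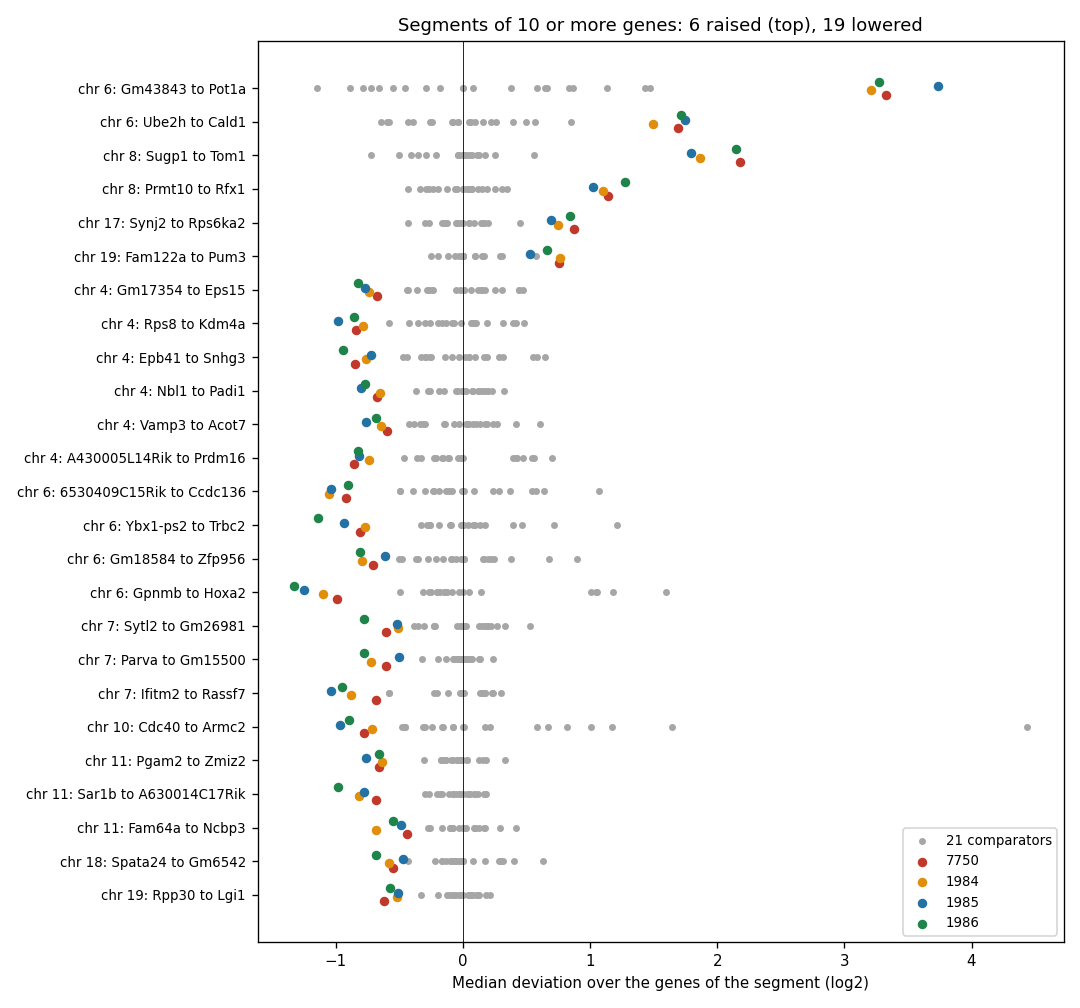
Median deviation over the genes of each segment of 10 or more genes, in log2 units, with the 4 related tumors colored and the 21 comparators in grey; names give the chromosome and the first and last gene. The raised segments of chromosomes 6 and 8 lie between 1.02 and 3.74 in the 4 tumors, while the lowered segments lie between -1.33 and -0.44.

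The other raised segments were smaller. On chromosome 17, Synj2 to Rps6ka2 (mm10 chr17:5941280-7303315) had 18 genes with medians of 0.87, 0.75, 0.70 and 0.84 against -0.43 to 0.45, and 4 apart above. Sytl3, a protein of vesicle transport, read 344, 352, 269 and 520 against 29.1, 65.4 and 109. Dynlt1a, Dynlt1b and Dynlt1f, dynein light chains, were the other 3, and as near-identical copies they can share reads, so their separate values are uncertain. On chromosome 19, 11 genes from Fam122a to Pum3 had medians of 0.53 to 0.76, but comparator PLK2null_7763 reached 0.58 and overlapped. Dock8 was its 1 gene apart above. Among the shorter raised segments, 8 genes from Gm9821 to Cry2 on chromosome 2 had medians of 1.25 to 1.57 against -0.31 to 0.51 in the comparators.

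Chromosome 4 had 6 lowered segments of 10 to 19 genes, with medians from -0.98 to -0.60. In these segments 10 genes stood apart, all below, where the share was 1.79% over all genes and 3.84% over chromosome 4. Segments and genes were called on the same values, so part of this is built in. Among the 10 was Padi1, which converts arginine in proteins to citrulline, at 3.86 to 19.2 against 34.8, 156 and 409. Klhdc7a read 194 to 342 against 425, 1370 and 3635, and Vamp3, of vesicle fusion, 516 to 774 against 1149, 1966 and 3780. Over all 1043 kept genes of chromosome 4, the median deviation was -0.30, -0.35, -0.44 and -0.36, overlapping a comparator range of -0.33 to 0.42. Chromosome 19 had medians of -0.20, -0.18, -0.23 and -0.20, all under the lowest comparator at -0.15, by a small gap. The median difference over all genes kept was itself -0.09, and -0.02 with TMM factors. The part of scaling in the chromosome 19 values was not tested. Chromosome 11 had -0.29, -0.32, -0.40 and -0.37 against -0.53 to 0.20, and its segment around Tcf7 had medians of -0.68 to -0.98. Lowered segments were also found on chromosomes 7, 10, 18 and 19, and Tead1 and Rassf7 on chromosome 7 and Wasf1 and Zbtb24 on chromosome 10 stood apart below in them.

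The 4 tumors also differed among themselves. A gene was counted for a tumor when its log2(value + 1) was at least 1 away from the mean of the other 3. By that rule 711 genes were higher and 336 lower in PLK2null_7750, 847 and 188 in PLK2null_1984, 253 and 815 in PLK2null_1985, and 171 and 552 in PLK2null_1986. At a distance of 3 or more, 75 genes were higher and 16 lower in PLK2null_7750, 20 and 4 in PLK2null_1984, 6 and 42 in PLK2null_1985, and 7 and 26 in PLK2null_1986. With 1 library per tumor there is no replicate check on these differences. The genes named next were chosen after their values were seen.

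**Figure D5:**
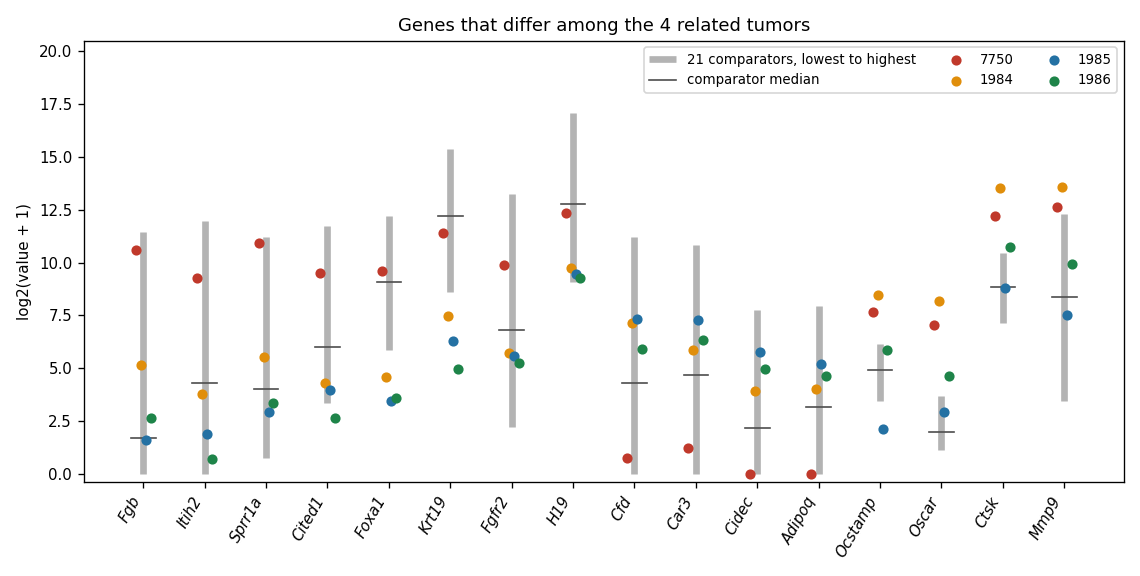
Genes that differ among the 4 related tumors, as log2(value + 1); colored points are the 4 tumors, thick grey bars run from the lowest to the highest comparator and dark lines mark the comparator median. Tumor PLK2null_7750 is apart from the other 3 for Fgb to H19 and is lowest for Cfd, Car3, Cidec and Adipoq, while PLK2null_1984 is highest and PLK2null_1985 lowest for Ocstamp, Oscar, Ctsk and Mmp9.

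The median deviation of the 16 luminal genes was 0.94 in PLK2null_7750, -0.0025 in PLK2null_1984, -0.10 in PLK2null_1985 and -0.03 in PLK2null_1986, and its members differed in how they varied. Spdef, an epithelial ETS factor, read 136, 189, 133 and 166, and Gata3, a luminal regulator, read 2831, 1538, 1818 and 2812, so PLK2null_7750 did not stand out for either. Foxa1, a pioneer factor of the estrogen receptor, read 770 in PLK2null_7750 and 22.97, 10.05 and 11.08 in PLK2null_1984, PLK2null_1985 and PLK2null_1986, against 56.6, 533 and 4659 in the comparators. Krt19 read 2663 in PLK2null_7750 and 178, 77.0 and 29.98 in the others, against 391.8, 4659 and 42189. For both genes PLK2null_7750 lay inside the comparators and the other 3 lay below all of them. Cited1, a coactivator of the estrogen receptor, read 738 in PLK2null_7750 and 18.7, 14.7 and 5.21 in the others, and Fgfr2, a receptor of fibroblast growth factors, 937 and then 51.2, 46.4 and 37.2. The liver plasma gene Fgb read 1563 in PLK2null_7750 and 34.5, 2.01 and 5.21 in the others, and Sprr1a, a protein of the cornified envelope, 1952 and then 45.2, 6.70 and 9.12. H19, an imprinted RNA, read 5242 in PLK2null_7750 and 866, 698 and 615 in the others, and Igf2, the growth factor beside it, 397 and then 15.1, 6.03 and 0.652.

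Markers of other cell types moved with the tumors. The shares apart over all genes kept were 2.77% above and 1.79% below, so the short lists here can hold none at those shares. Of 10 adipocyte markers 9 were kept and none stood apart. The summed adipocyte list was 1565 to 3744 in the 4 tumors and 294 to 54264 in the comparators. Adipoq and Plin1, which define fat cells, were 0 in PLK2null_7750 and 15.1 to 35.5 and 5.02 to 25.4 in the other 3. Fabp4, also a defining marker, did not follow them, at 1633 in PLK2null_7750, 2584 in PLK2null_1984, 979 in PLK2null_1985 and 850 in PLK2null_1986. Of 10 skeletal muscle markers 9 were kept, none stood apart, and the summed list was 64.5 to 524, against 107 to 4096. Acta1 and Myh4, of muscle fibers, read 72.2 and 43.2 in PLK2null_7750 and at most 5.02 and 1.34 in the others. Of 12 fibroblast markers none stood apart, with sums of 70140 to 273535 against 33829 to 339255, and Col1a1 read 30250, 79169, 21822 and 31896. The part of these cell types in the differences among the 4 tumors was not tested.

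A number of genes were highest in PLK2null_1984 and lowest in PLK2null_1985, among them Ctsk, Mmp9 and Ocstamp but also Mmp3, Mmp10 and the chemokine Cxcl5, and no list of them was fixed. Ctsk, the collagen-degrading protease of osteoclasts, read 4736 in PLK2null_7750, 11629 in PLK2null_1984, 441 in PLK2null_1985 and 1692 in PLK2null_1986, against 142, 452 and 1409. Mmp9, a matrix protease, read 6407, 12249, 183 and 979 against 9.94, 335 and 5086. Ocstamp, which helps such cells fuse, read 200, 348, 3.35 and 57.3 against 9.79, 29.5 and 70.1. Mmp3, a matrix protease of stromal cells, read 1151, 5734, 279 and 516. The range among the 4 tumors was wider than that among the 21 comparators for Ocstamp. Of 13 macrophage markers, Cd68 alone stood apart, above, where the share over all genes was 2.77%. Cd68 read 3962, 6002, 3914 and 4863 against 349, 1654 and 3449. The summed macrophage list was 43301 to 66319 against 12226 to 64320. The defining markers Csf1r and Adgre1 read 2698 to 4791 and 649 to 1014 and overlapped the comparators. The part of macrophages in the levels of Ctsk, Mmp9 and Chit1 was not tested.

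Lists of T cells, B cells, neutrophils, endothelium, pericytes and red blood cells held no gene apart. Over all genes kept, 2.77% stood apart above and 1.79% below, so lists this short can hold none at those shares. The summed T cell list was 235 to 487 in the 4 tumors and 162 to 3209 in the comparators, and the B cell list 24.95 to 61.7 against 15.1 to 5688. Ms4a1, which defines B cells, was at or under 1.35 in the 4 tumors, fewer than 3 reads. The neutrophil list summed to 1147 to 2304 against 326 to 4962, the endothelial list to 6295 to 11782 against 4244 to 108042, and the pericyte list to 10032 to 13807 against 4722 to 51258. Red blood cell genes summed to 491 to 3448 against 658 to 21536. The nerve and Schwann list summed to 32640 to 41434 against 7606 to 24069. Its 1 gene apart was Sox10, above, where the share over all genes was 2.77%.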

How the data were processed

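RNA of 41 mouse mammary tumors, 1 library each, was sequenced from both ends. Per the labels and the submitters' processing notes, the authors aligned reads to mm10 with STAR 2.7.6a and estimated counts per gene with Salmon 1.4.0, and Picard 2.22.4 and SAMtools are also named. They deposited upper-quartile-normalized values, a linear signal for 47480 gene symbols. The gene annotation is not given in the sources used here. Every column was matched to a tumor by its title and 0 columns were left unused.

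The commonest value above 0 in a tumor was taken as 1 read. Between 81.6 and 84.9% of nonzero values under 20 reads lay within 0.1 of a whole number of reads, so counts could not be recovered and count models were not applied. This step put the depth at 29410605 to 70873572 fragments. The limit of 3 reads reflects counting error and nothing else.

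Values were analyzed as log2(value + 1) for genes whose mean reached 10 over the 25 tumors compared, in Python 3.11.15 with numpy 2.4.6 and pandas 2.3.3. Positions came from GENCODE vM21 on GRCm38, the build of mm10, and from RefSeq for 616 symbols, and covered 98.7% of the genes kept. Windows ran over 15 neighboring genes, and segments joined windows with gaps of at most 5 genes. The steps were tested on simulated data. Alternatives were another pseudocount, filter, scaling, window, set of comparators or correlation, and leaving out each tumor.

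The 4 tumors and all gene lists were chosen with earlier results of these data known. Named genes were 7 fixed genes, the 15 furthest out in each direction among genes apart without predicted genes and pseudogenes, up to 5 per segment, up to 4 per list and the defining markers of cell types. Each tumor counts as 1 sample, and the labels do not say that the 4 arose separately.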

Additional observations from a re-analysis of the deposited data

Results flagged for a closer look

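Among the 4 related tumors, 140 named genes and segments were searched for 1 tumor lying far from the other 3. The search found 6, where chance flags about 1 group in 20, so their number is no more than that rate gives. Krt5 was 1.44 in tumor PLK2null_1984 and 0.666 to 0.680 in the other 3, all under 3 reads. Clip4 was 89.7 in PLK2null_7750 and 5.21 to 8.61 in the others. Ndp was 0.674 in PLK2null_7750, under 3 reads, and 0 in the others. Fat2 was 0 in PLK2null_1986 and 9.38 to 12.2 in the others. Zfp212, a zinc finger gene of chromosome 6, was 300.02 in PLK2null_1985 and 332 to 336 in the others. Ccnd1 was 1295 in PLK2null_1986 and 2074 to 2209 in the others.

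Tumors outside the comparison of the 4 with the 21 comparators were also read for the raised segments. The chromosome 6 segment from Gm43843 to Pot1a had a median deviation of 2.88 in p53null-2208L, above the highest comparator at 1.47. The chromosome 8 segment from Prmt10 to Rfx1 had medians of 0.56 in p53null-T11 and 0.40 in the claudin-low tumor PLK2null_733, above the highest comparator at 0.35.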

How the results depend on the processing

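The counts of genes apart stayed within 1.5 times of 471 and 305 under another pseudocount, filter, scaling, 24 or 20 comparators and without each tumor in turn, where they ran from 467 to 539 higher and from 315 to 400 lower. Lowered windows fell from 383 to 230 under quantile normalization and to 253 with TMM factors. Against the 13 p53-null tumors, 1483 genes were higher, 840 lower and 1083 windows raised, and 328 of the 471 higher and 85 of the 305 lower genes were shared. There the differences of Ubn2, Luc7l2 and Braf turned to 0.35, 0.085 and 0.12. The cause was not tested. The raised segments of chromosomes 6, 8 and 17 stayed apart under all 12 alternatives, and that of chromosome 19 under 5. Of the 19 lowered segments, 6 stayed apart under all 12 and the others under 7 to 11; against the p53-null tumors 8 of 19 were apart, and 0 of the 4 on chromosome 6. Of 41 list medians, 6 changed sign under another scaling, each at most 0.06 in size. Map3k1 stayed between 1.06 and 1.22. No paired analysis was possible because the result comes from no test. Depth limits genes near the floor, such as Krt5 and Sostdc1.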

Other observations

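Further gene lists held no gene apart from the comparators. At the shares over all genes, 2.77% above and 1.79% below, lists of this length can hold none. The 22 kept interferon response genes had a median difference of -0.65, with 1 of 22 positive, but the median deviation was 0.31 in PLK2null_7750 and -1.03, -1.18 and -1.64 in PLK2null_1984, PLK2null_1985 and PLK2null_1986. The 12 genes of MHC class I had a median difference of -0.20, and their median deviation was 0.43, -0.50, -0.86 and -0.54 in the same order. Of 14 genes of the unfolded protein response, 12 had a positive difference, with a median of 0.41. The 13 factors of epithelial-mesenchymal transition had a median of -0.10, the 10 contractile genes of the basal layer -0.53, the 21 DNA repair genes 0.07 and the 18 genes of PI3K and its phosphatases -0.03.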
